A study of Mus musculus with 11 samples.

Results

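IRF4 occupied 652 regions in the day 1 list of activated mouse B cells that lay beside a PU.1 peak and had no partner in the day 3 list. These regions are described here by sequence, PU.1 occupancy and neighbouring genes. They were chosen by the authors' peak lists, of which there is 1 per factor and day, called group lists here. A region was taken from the 2496 rows of the IRF4 day 1 group list when no peak position of the IRF4 day 3 group list lay less than 200 bp away and a position of the PU.1 day 1 or day 3 group list did. The 652 regions make up 26.1% of the day 1 list, and both IRF4 group lists together hold 4460 rows. Membership therefore rests on measured peaks, and the presence or absence of IRF4 and PU.1 that the choice used is given as a description without a test.

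B cells induce the transcription factor IRF4 after antigen receptor and CD40 signals, and its level helps set whether they take the germinal centre or the plasma cell path. On its own it binds DNA weakly. The Ets factor PU.1 recruits it to a joint element, the Ets-IRF composite element (EICE), while BATF and JUN proteins recruit it to AP-1-IRF composite elements (AICE). At high levels IRF4 can also bind the interferon-stimulated response element (ISRE), a pair of IRF half-sites, without such a partner.

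Splenic B cells were taken from mice of 129 background with the B1-8i allele, an antibody gene placed by targeting that recognises the hapten NP. All groups received 0.01 ng/mL NP-Ficoll plus IL-5, IL-4, IL-2 and CD40L. Chromatin immunoprecipitation sequencing (ChIP-seq) with antibodies to IRF4 gave 3 libraries after 1 day of stimulation, before differentiation, and 3 after 3 days, following differentiation to plasma cells. Antibodies to PU.1 gave 2 libraries at each time, and background came from 1 input pool made of peripheral or immature B cell DNA. No sort after stimulation is named in the labels, and in such cultures less binding per cell and fewer cells with binding cannot be told apart. Peak lists carry no expression values, so cell identity could not be checked against marker genes. Libraries held 825, 9326 and 8929 IRF4 peaks on day 1 and 2784, 1408 and 5595 on day 3, and 27321 to 38052 PU.1 peaks. IRF4 day 1 replicate 1 stands apart by its 825 peaks.

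An EICE was present in 172 of the 652 regions, in the 200 bp around the IRF4 position. It was searched as GGAA and GAAA with any 2 bases between them, on both strands of the mm9 reference. Rank here is the percentile of enrichment within the library that a row came from. Regions called in IRF4 day 1 replicate 1 were ranked in that shorter list and can stand lower there. The Cd74 promoter region, with an EICE, stood at the 1.94th percentile in replicate 1 and at 88.0 in replicate 2. The windows below show the element in capitals in the 8 EICE regions that ranked highest in this way. Each is named by the gene with the nearest protein-coding transcript start and is written 5′ to 3′ on the strand that carries the element.
Lsp1, chr7:149646655-149646713, plus strand: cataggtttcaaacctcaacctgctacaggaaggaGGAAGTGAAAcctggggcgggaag
Shq1, chr6:100430662-100430741, plus strand: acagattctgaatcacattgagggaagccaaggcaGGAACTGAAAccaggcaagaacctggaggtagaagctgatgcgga
Btla, chr16:45227365-45227444, plus strand: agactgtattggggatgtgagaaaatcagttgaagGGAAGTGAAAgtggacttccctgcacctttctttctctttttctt
Pcif1, chr2:164694140-164694219, plus strand: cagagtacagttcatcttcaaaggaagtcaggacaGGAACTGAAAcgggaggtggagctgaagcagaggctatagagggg
Map2k4, chr11:65518541-65518620, minus strand: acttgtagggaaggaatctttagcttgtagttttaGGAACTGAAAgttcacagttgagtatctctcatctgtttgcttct
Tet2, chr3:133297543-133297622, minus strand: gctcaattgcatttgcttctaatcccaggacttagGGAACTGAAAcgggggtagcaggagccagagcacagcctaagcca
Nupl2, chr5:23736954-23737033, plus strand: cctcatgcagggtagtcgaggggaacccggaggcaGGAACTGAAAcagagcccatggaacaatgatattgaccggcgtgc
Vmn1r33, chr6:66545966-66546045, plus strand: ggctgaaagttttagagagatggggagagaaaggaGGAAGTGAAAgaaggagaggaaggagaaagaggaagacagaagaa
The element read GGAAGTGAAA in 3 of these windows and GGAACTGAAA in 5. The same spellings led among all 172 EICE regions, with 63 and 60 of them. GGAAATGAAA and GGAAGAGAAA followed with 10 regions each. In regions of the IRF4 lists of both days that also had PU.1, the order of the leading pair was the other way round, with 119 of 351 EICE regions for GGAAGTGAAA and 143 for GGAACTGAAA. In day 3-only regions with PU.1 the counts were 96 and 47 of 220. These spellings were compared after their counts were seen and no test was made.

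Other members carried an AP-1 site (TGANTCA, N for any base) or an ISRE (GAAA, any 2 bases, GAAA) and no EICE. The highest-ranked of each kind, 2 apiece, are shown for contrast, with that element in capitals.
Pitpnb, chr5:111553790-111553869, plus strand: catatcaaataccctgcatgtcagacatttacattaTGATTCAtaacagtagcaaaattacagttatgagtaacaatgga
Zfp945, chr17:22932328-22932407, plus strand: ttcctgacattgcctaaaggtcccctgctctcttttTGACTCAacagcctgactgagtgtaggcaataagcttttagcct
Lta4h, chr10:92861467-92861546, plus strand: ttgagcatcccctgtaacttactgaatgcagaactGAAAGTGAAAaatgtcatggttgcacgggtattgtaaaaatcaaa
Gm4968, chr6:127190300-127190379, minus strand: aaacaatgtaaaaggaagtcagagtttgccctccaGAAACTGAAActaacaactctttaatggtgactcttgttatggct
Pitpnb and Zfp945 name AP-1 site regions, and Lta4h and Gm4968 name ISRE regions. All 4 were intergenic.

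The label "day 1-only" held for the group lists and not for the libraries behind them. Of the 652 regions, 319 (48.9%, 95% Wilson interval 45.1 to 52.8) had a peak in at least 1 IRF4 day 3 library, 317 in exactly 1 and 2 in 2 libraries. A group list holds the peaks with a partner up to 200 bp away in another library of its factor and day. Calls in more than 1 day 3 library were thus hardly possible here, by the choice of regions. IRF4 day 3 replicate 1 called 165 of the 652 regions (25.3%), replicate 2 called 20 (3.07%) and replicate 3 called 136 (20.9%). Among all rows of the day 1 list, 66.2% were called in a day 3 library, a share that includes the rows with a day 3 partner. Among the 741 day 1-only rows without PU.1 it was 230 (31.0%), and this difference was not tested. The remaining 333 regions were called in 0 day 3 libraries. Day 3 lists reach lower than day 1 lists, to an enrichment of 15.04 to 16.9 against 20.9 to 21.9 on day 1, where enrichment is the authors' fold over input. These lowest values are the ends of separately scaled lists and do not measure how sensitive each library was.

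On day 1, 632 regions (96.9%) were called in replicate 2 and 629 (96.5%) in replicate 3, near the 96.7% and 96.03% of all day 1 rows. Only 119 (18.3%) were called in replicate 1, against 30.7% of all day 1 rows. All 3 libraries called 76 regions (11.7%), against 23.4% of all day 1 rows. Of these 76 regions 54 (71.05%) were also called on day 3, against 265 of the 576 regions in 2 libraries (46.0%). The number of regions depended on single libraries. Lists rebuilt without IRF4 day 1 replicate 2 or replicate 3 gave 96 and 99 regions, and without IRF4 day 3 replicates 1, 2 and 3 in turn they gave 987, 845 and 918. Without day 1 replicates 2 and 3 the share called on day 3 was 72.9% and 65.7%.

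Few regions lay close to the limit of 200 bp. The nearest position of the IRF4 day 3 list was 200 to 500 bp away in 3 regions, named by Sgk3 (233 bp), Eif4enif1 (308 bp) and Gm4968 (474 bp), and the median distance was 170.7 kb. On the other side of the limit, 3 rows counted as shared had their day 3 partner 150 bp or more away. For PU.1, 21 regions had the nearest position 150 bp or more away, and 18 of the 741 day 1-only rows without PU.1 had it less than 50 bp beyond the limit.

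**Figure D1:**
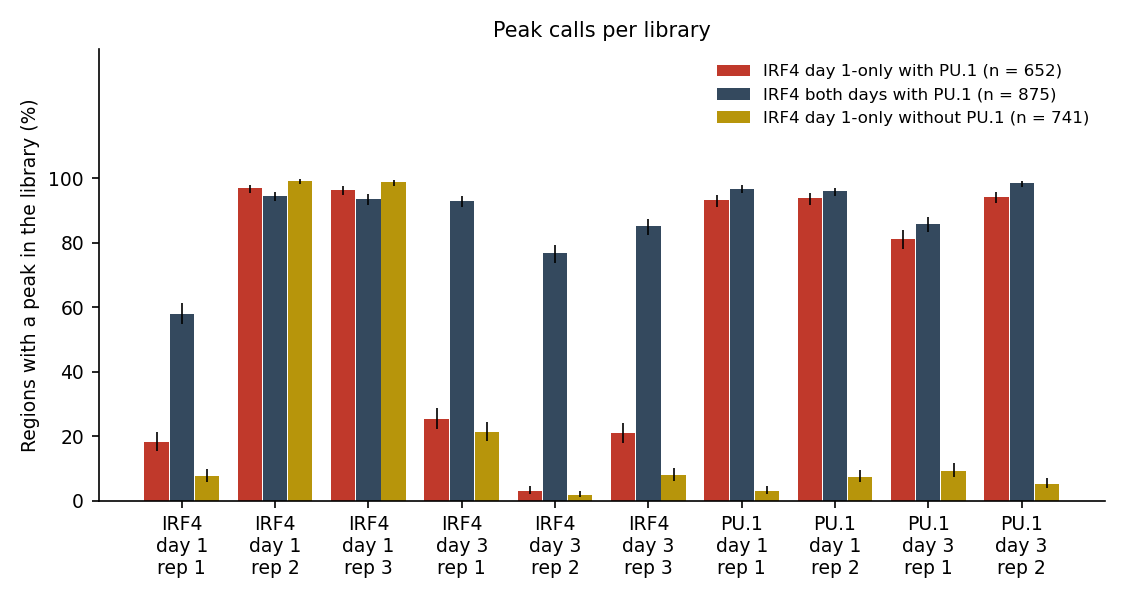
Share of regions (vertical axis, %) with a peak less than 200 bp away in each of the 10 libraries (horizontal axis), for the 652 day 1-only regions with PU.1, the 875 regions of both days with PU.1 and the 741 day 1-only regions without PU.1. Bars are shares and lines their 95% Wilson intervals. The shares were in part set in advance by the lists that chose the regions. The day 1-only regions with PU.1 were called in 25.3%, 3.07% and 20.9% of cases in the IRF4 day 3 libraries and in 81.1% to 94.3% in the PU.1 libraries.

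PU.1 was called at these regions on both days in most cases. A PU.1 peak stood in both group lists at 441 regions (67.6%), in the day 1 list alone at 147 (22.5%) and in the day 3 list alone at 64 (9.82%). All 4 PU.1 libraries called 439 regions, 3 called 183, 2 called 29 and 1 called 1. A region needed a PU.1 group-list position, which rests on peaks in both libraries of a day. Calls in fewer than 2 PU.1 libraries were thus hardly possible. Among the 875 regions of both IRF4 lists with PU.1, all 4 libraries called 697 (79.7%). The PU.1 position lay a median of 27 bp from the IRF4 position (quartiles 10 and 55 bp) and under 50 bp away in 457 regions.

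Regions of the day 1-only set ranked lower than regions of both days in every IRF4 day 1 and PU.1 library. In IRF4 day 1 replicate 2 their median enrichment stood at the 76.4th percentile of the list, against 90.4 for regions of both days. In replicate 3 the values were 76.9 and 90.02, and in replicate 1, which held 119 of the 652 regions, 35.9 and 60.5. In the PU.1 libraries the medians were at the 84.8, 89.04, 87.5 and 86.02 percentiles (day 1 replicates 1 and 2, day 3 replicates 1 and 2), against 94.7, 96.5, 96.1 and 96.5. Day 1-only regions without PU.1 had an IRF4 median at the 76.7th percentile in day 1 replicate 2, close to that of the regions with PU.1. These ranks come from the lists that chose the regions and were not tested.

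The EICE was less frequent here than in other regions with PU.1 and far more frequent than in day 1-only regions without it. It was found in 26.4% of the 652 regions, in 40.1% of 875 regions of both days with PU.1 and in 35.8% of 615 day 3-only regions with PU.1. Day 1-only regions without PU.1 held it in 2.56% of 741. Across the whole day 1 list the share was 22.0%, and in windows 2 kb to either side of the 652 regions it was 1.61%. The EICE read backwards without complementing, a control of the same bases, was found in 1.38% of regions and 1.23% of those windows.

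Differences in EICE share were tested with Fisher's exact test, two-sided, over regions, with Benjamini-Hochberg adjustment over the 12 comparisons made (4 features against 3 sets). The test covers counting error over regions and not the spread between libraries. Against regions of both days the difference was -13.7 percentage points (95% interval -18.4 to -8.98, Fisher's exact test, adjusted p = 7.55e-08). It was -9.39 points against day 3-only regions (interval -14.4 to -4.30, Fisher's exact test, adjusted p = 0.000662) and 23.8 points against day 1-only regions without PU.1 (interval 20.3 to 27.4, adjusted p = 1.87e-40).

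The EICE share of both sets differed by the library that supplied the row, and by PU.1 rank as given below. Rows of the day 1 list come from replicate 1 or 2, and 119 of the 652 regions (18.3%) came from replicate 1, against 507 of 875 (57.9%). These are also all the regions called in replicate 1, the library with 825 peaks. The split by source is therefore a split by a call in that library. Within rows of replicate 1 the EICE shares were 36.1% and 46.7%. Within rows of replicate 2 they were 24.2% and 31.0%, a difference of -6.78 points (Fisher's exact test, adjusted p = 0.0536) that no longer passed. Without IRF4 day 1 replicate 2 the difference was -11.4 points (interval -21.3 to -0.416, Fisher's exact test, adjusted p = 0.171). Without replicate 3 it was -10.1 (interval -20.1 to 0.706, Fisher's exact test, adjusted p = 0.15). These lists left 96 and 99 regions, and both intervals hold the main difference of -13.7 points. Without IRF4 day 3 replicate 2 the difference was -7.26 points (Fisher's exact test, adjusted p = 0.00813).

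The comparison with day 3-only regions was less stable. Without IRF4 day 1 replicates 2 and 3 the difference turned to 0.701 and 3.00 points (Fisher's exact test, adjusted p = 0.994 and 0.697). Leaving out day 3 replicate 1 or 2 gave -7.25 and -4.60 points (Fisher's exact test, adjusted p = 0.0505 and 0.162). With the day 3 list ended at the lowest day 1 enrichment it was -6.55 points (Fisher's exact test, adjusted p = 0.057). The difference from regions without PU.1, whose direction the choice largely set, passed in every list rebuilt without 1 library, between 21.0 and 33.4 points.

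EICE share was higher at higher PU.1 ranks. Among the 608 regions called in PU.1 day 1 replicate 1, the EICE was present in 9.47% of 95 regions in the lower 50% of that list. The share was 16.7% of 120 from the 50th to the 75th percentile, 28.9% of 173 up to the 90th and 39.5% of 220 above it. Regions of both days gave 12.2%, 14.3%, 38.7% and 47.4% in the same ranges. The AP-1 site went the other way in both sets, with 37.9%, 25.8%, 20.2% and 12.7% in the day 1-only regions and 44.9%, 38.1%, 22.1% and 11.5% in regions of both days. By IRF4 rank in day 1 replicate 2 the EICE share of the day 1-only regions lay between 24.9% and 27.4%. Regions of both days held the EICE in 36%, 34.8%, 41.7% and 40.9% over the same IRF4 ranges, above the day 1-only regions in each. Above the 90th percentile of IRF4 the AP-1 site was found in 31.1% of 119 day 1-only regions and in 20.7% of 426 regions of both days. These shares are a description over regions. Whether PU.1 rank or source library accounts for the lower EICE share was not tested.

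**Figure D2:**
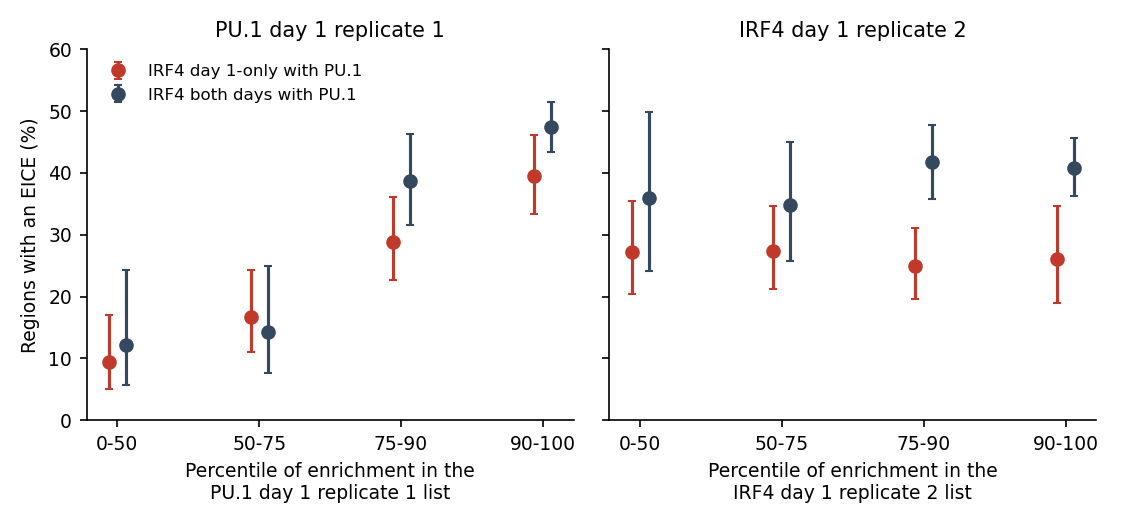
Share of regions with an EICE (vertical axis, %) by percentile of enrichment (horizontal axis) within the PU.1 day 1 replicate 1 list (left) and the IRF4 day 1 replicate 2 list (right). Points are shares and lines their 95% Wilson intervals, for day 1-only regions and regions of both days, all with PU.1. The share ran from 9.47% in the lowest to 39.5% in the highest range of PU.1 rank and lay between 24.9% and 27.4% over IRF4 rank in the day 1-only regions.

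The EICE lay closer to the PU.1 position than to the IRF4 position. In the 172 EICE regions the middle of the element was a median of 11.5 bp from the nearest PU.1 position, and within 25 bp in 139 (80.8%). From the IRF4 position the median distance was 30.5 bp, and 69 (40.1%) lay within 25 bp. In regions of both days the medians were 9.5 bp and 22.5 bp. An EICE was counted only up to 100 bp from the IRF4 position, since the window ends there.

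**Figure D3:**
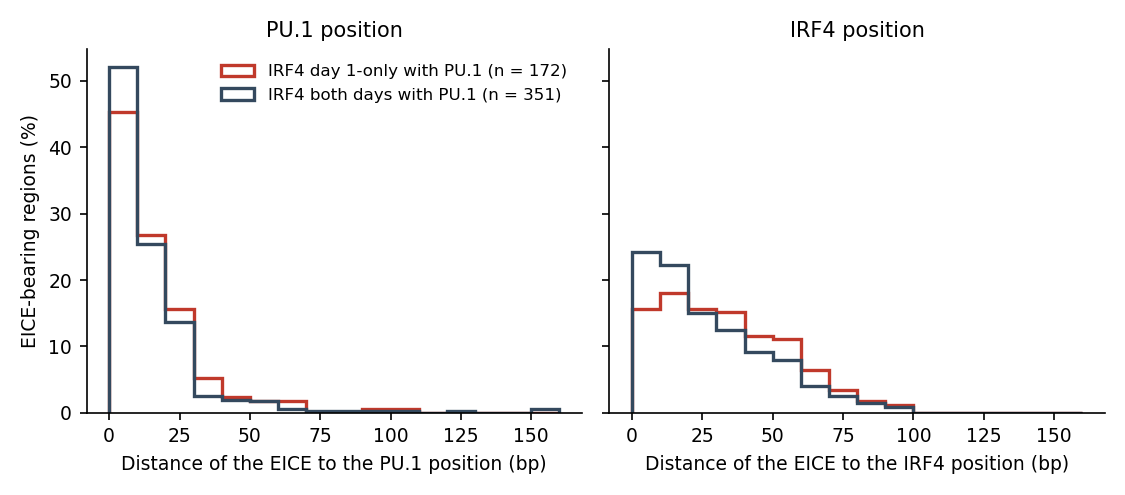
Distance of the EICE to the nearest PU.1 position (left) and the IRF4 position (right), in bp (horizontal axes), as a share of EICE regions (vertical axis, %). Lines are histograms for 172 day 1-only regions and 351 regions of both days, all with PU.1. In the day 1-only regions 80.8% of elements lay within 25 bp of the PU.1 position and 40.1% within 25 bp of the IRF4 position.

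AP-1 sites were more common here than in day 3-only regions with PU.1 and less common than in day 1-only regions without it. They were found in 139 of the 652 regions (21.3%), against 29.6% across the whole day 1 list and 4.37% in windows 2 kb away. Regions of both days with PU.1 held them in 18.3%, a difference of 3.03 points that did not pass (interval -0.980 to 7.13, Fisher's exact test, adjusted p = 0.202). Day 3-only regions with PU.1 held them in 10.6%, a difference of 10.7 points (interval 6.75 to 14.7, Fisher's exact test, adjusted p = 5.06e-07). Day 1-only regions without PU.1 held them in 44.8%, a difference of -23.5 points (interval -28.1 to -18.6, Fisher's exact test, adjusted p = 7e-20).

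The excess of AP-1 sites over day 3-only regions no longer passed without IRF4 day 1 replicate 2 (6.19 points, Fisher's exact test, adjusted p = 0.371) or replicate 3 (8.73 points, adjusted p = 0.0702), which left 96 and 99 regions. The difference from regions of both days was 5.53 points without IRF4 day 3 replicate 3 (Fisher's exact test, adjusted p = 0.0143) and -1.18 points without day 3 replicate 2 (adjusted p = 0.725). Regions with PU.1 in 1 group list held an AP-1 site in 63 of 211 cases (29.9%) and those with PU.1 in both lists in 76 of 441 (17.2%). The EICE shares of the same regions were 20.4% and 29.3%. An EICE and an AP-1 site occurred together in 31 regions (4.75%).

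ISRE were few in these regions. They were found in 38 of 652 (5.83%), against 7.53% across the day 1 list and 3.60% in windows 2 kb away. Day 3-only regions with PU.1 held them in 13.5%, a difference of -7.67 points (interval -11.0 to -4.44, Fisher's exact test, adjusted p = 8.49e-06). It was -4.47 and -7.51 points without IRF4 day 1 replicates 2 and 3 (Fisher's exact test, adjusted p = 0.467 and 0.0702) and no longer passed. Neither regions of both days (7.31%, Fisher's exact test, adjusted p = 0.28) nor day 1-only regions without PU.1 (7.96%, adjusted p = 0.202) differed by a margin that passed, with intervals of -3.95 to 1.1 and -4.81 to 0.570 points.

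The remaining sequence features were not tested. An AICE, an IRF half-site joined to an AP-1 site, was found in 13 regions (1.99%) and in 7.29% of the day 1-only regions without PU.1. A PU.1 site (GAGGAAG) was found in 21.6% of regions, against 7.06% of windows 2 kb away. None of these 5 elements was found in 270 regions (41.4%), against 31.2% of regions of both days. An AICE holds an AP-1 site by construction, and a PU.1 site can overlap an EICE. Median GC content of the windows was 47.0%, against 46.5% in both other sets with PU.1 and 45% in day 1-only regions without it.

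**Figure D4:**
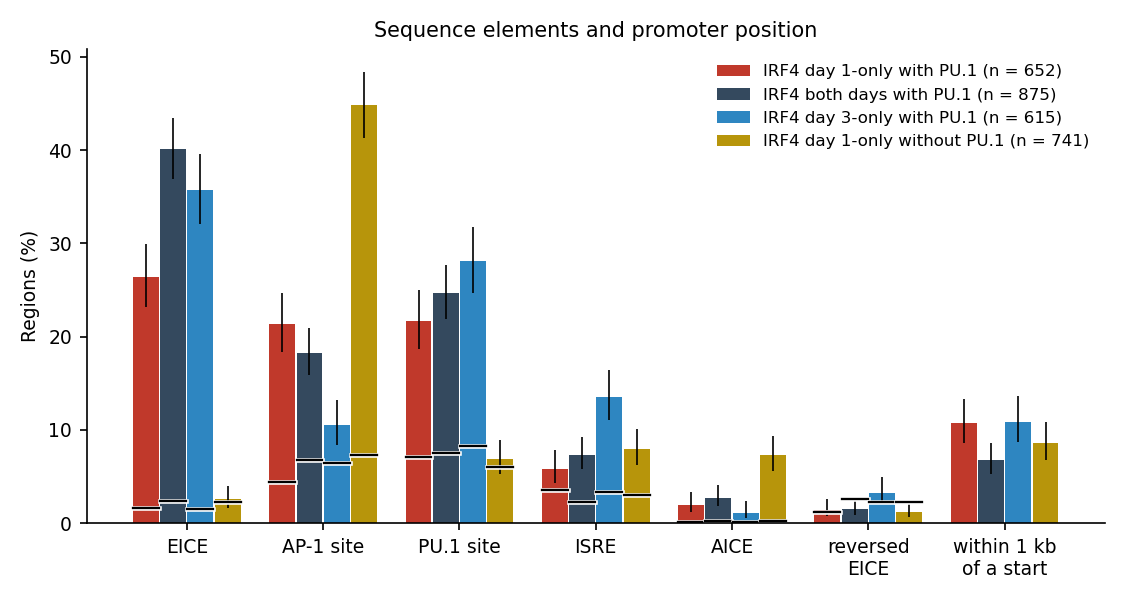
Share of regions (vertical axis, %) with each sequence element in the 200 bp around the IRF4 position, or within 1 kb of a protein-coding transcript start (horizontal axis), in the 4 sets of regions. Bars are shares, thin vertical lines their 95% Wilson intervals, and black horizontal marks the share in windows 2 kb to either side. The day 1-only regions with PU.1 held an EICE in 26.4% and an AP-1 site in 21.3%.

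Most of the regions lay more than 1 kb from a transcript start. Of the 652, 298 (45.7%) were intergenic, 271 (41.6%) lay in introns, 13 in exons and 70 (10.7%) within 1 kb of a transcript start of a protein-coding gene. Across the day 1 list 8.37% lay that close. The median distance to the nearest start was 18.3 kb. Regions of both days with PU.1 were at promoters in 6.74%, a difference of 3.99 points (interval 1.15 to 6.99, Fisher's exact test, adjusted p = 0.0117). That difference did not pass with a limit of 0.5 kb (2.56 points, Fisher's exact test, adjusted p = 0.0524) or 5 kb (1.52 points, adjusted p = 0.535), nor within rows of replicate 2 (2.73 points, adjusted p = 0.29). Nor did it pass without IRF4 day 1 replicate 2 or 3 or day 3 replicate 1 (3.23, 6.10 and 2.18 points, Fisher's exact test, adjusted p = 0.467, 0.0814 and 0.2). Without day 1 replicate 3 the difference was larger than in the main lists (interval 0.742 to 14 points), with 99 regions left. Day 3-only regions with PU.1 (10.9%, Fisher's exact test, adjusted p = 0.928) and day 1-only regions without it (8.64%, adjusted p = 0.243) did not differ by a margin that passed (intervals -3.62 to 3.27 and -1.01 to 5.28 points).

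By rank within the library of their row, the leading promoter regions belonged to Lsp1, Icam1, Rrm2, Rfx5 and Cd37. Lsp1 encodes an actin-binding protein of leukocytes, and its region (chr7:149646507-149646935) held the first EICE shown above. Its IRF4 enrichment was 78.1 in day 1 replicate 2 and 72.2 in replicate 3, with no call in replicate 1, and 35.1 in day 3 replicate 3, the single day 3 library that called it. PU.1 enrichment at Lsp1 was 89.0 and 186.2 in the day 1 libraries and 472.5 and 423.3 in the day 3 libraries. Each library has its own scale, so these values are not compared across libraries.

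The region of Cd37, a tetraspanin of B cells, held an EICE and had its IRF4 position 0.235 kb upstream of the start. IRF4 enrichment there was 51.5 and 51.8 in day 1 replicates 2 and 3 and 19.4 in day 3 replicate 3. Icam1, an adhesion molecule, was bound 0.619 kb upstream of a start, with 64.4 and 23.5 on day 1 and 17.0 in day 3 replicate 1. Rrm2, a subunit of ribonucleotide reductase, had 53.1 and 28.1 in day 1 replicates 2 and 3 and no day 3 call. Rfx5, a factor that binds MHC class II promoters, was bound 0.2 kb upstream of its start with an AP-1 site, at 52.2 and 31.2 in the same libraries and in 0 day 3 libraries.

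A small group combined calls in every IRF4 day 1 library with none on day 3. There were 22 such regions (3.37%), against 2.02% of day 1-only rows without PU.1. Across the whole day 1 list, which includes rows with a day 3 partner, the share was 1.48%. These shares were not tested. Of the 22 regions, 13 had PU.1 in all 4 libraries. The 8 of the 13 with the highest enrichment in IRF4 day 1 replicate 2 had their nearest start at Mbnl1, Tiam1, En2, Maml2, Ebf1, Txk, Vps37b and Asph. Of the 8, 3 (En2, Maml2 and Ebf1) held an EICE.

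The region 0.934 kb upstream of Mbnl1, an RNA splicing regulator, had IRF4 enrichments of 22.1, 91.6 and 58.7 in the day 1 libraries. An intron of Tiam1, an activator of the GTPase Rac, had 21.0, 83.6 and 56.0. Both had weak values in replicate 1, near the lower end of that list, and high values in replicates 2 and 3. The Ebf1 region, intergenic at 498.8 kb beyond the nearest start of this B lineage regulator, had 30.8, 54.1 and 41.8. Its PU.1 enrichments were 320.5 and 412.3 for day 1 and 437.7 and 394.0 for day 3.

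The region 65.0 kb upstream of Maml2, a coactivator of Notch, had IRF4 values of 27.2, 58.3 and 26.7. An intron of Txk, a Tec family kinase, had 26.2, 47.4 and 38.7, with weak PU.1 of 27.1 and 42.3 for day 1 and 38.1 and 23.2 for day 3. The other 3 regions lay in introns of the homeobox gene En2, of Vps37b, a subunit of the ESCRT-I sorting complex, and of Asph, an aspartate hydroxylase. Their replicate 1 values were 25.02, 23.3 and 31.7.

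By enrichment alone, the leading rows from replicate 1 had their nearest start at Btla, Pcif1, Prdx6, Gm17384 and Snx18. Those from replicate 2 had it at Lta4h, Pitpnb, Cdkal1, Gm4968 and Zfp945. Several of these starts were distant, at 205.9 kb for Pitpnb, 71.7 kb for Zfp945, 58.2 kb for Prdx6, 54.6 kb for Lta4h and 46.3 kb for Snx18. Btla encodes an inhibitory receptor of B and T cells. Its intronic region, 2.91 kb past the start, had IRF4 enrichments of 53.8, 66.3 and 91.5 on day 1, 34.9 in day 3 replicate 2, and PU.1 enrichments of 709.5 and 797.9 in the day 1 libraries, then 725.2 and 688.7 in those of day 3. The Pcif1 region, 10.7 kb upstream, had IRF4 values of 53.5, 93.8 and 62.9 on day 1 and no day 3 call, with PU.1 in 3 libraries. Both carry an EICE shown above. Of the 10 leading rows 6 were called in a day 3 IRF4 library, and 2 held an EICE.

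Genes of B cell function were found near these regions. A gene was counted when a region lay in it or within 20 kb, which held for 724 of 22380 protein-coding genes of GENCODE M1 (3.24%). Counts per list are given beside that share. The lists were drawn up with earlier results of these data known, gene length was not matched, and no list was tested.

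Of 17 antigen presentation and costimulation genes, 6 were counted: Rfx5, Icosl, Cd86, H2-Aa, H2-Eb1 and Cd74. Icosl and Cd86 encode costimulatory ligands, and H2-Aa and H2-Eb1 chains of MHC class II. H2-Aa and H2-Eb1 shared 1 region, 5.83 kb upstream of H2-Aa, with IRF4 enrichments of 26.9 and 24.3 in day 1 replicates 2 and 3, no day 3 call and strong PU.1 of 395.4 and 662.0 on day 1. Rfx5 had a further region 11.2 kb beyond its start, called in all 3 day 1 libraries (24.9, 65.6 and 46.3) and 0 day 3 libraries. The Icosl and Cd86 regions were intergenic, with an ISRE at Cd86. Icosl had 31.3 and 31.4 in day 1 replicates 2 and 3 and was also called in day 3 replicate 3, at 43.9. The Cd74 promoter region was called in day 3 replicate 1 too, at 25.2, while Cd86 was called in 0 day 3 libraries.

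Of 20 B cell receptor signalling genes, 5 were counted: Lyn, Cd79b, Plcg2, Bank1 and Cd79a. Lyn, the Src family kinase that phosphorylates the receptor, had 2 regions with an EICE. The intronic one (chr4:3651897-3652170) also held an ISRE, with IRF4 enrichments of 44.5 and 38.7 in day 1 replicates 2 and 3 and 17.4 in day 3 replicate 3. The other lay past its end, near Rps20, with 43.5 and 56.7 on day 1 and 25.6 in day 3 replicate 2. Intronic regions of Plcg2, the phospholipase below the receptor, and of the adaptor Bank1 had day 1 values of 25.9 and 46.3, and of 24.7 and 61.5. Both were called in 0 day 3 libraries. The regions counted for the receptor chains lay 4.49 kb upstream of Cd79b, in an exon of Scn4a, and 12.9 kb upstream of Cd79a, at the promoter of Rps19.

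Of 20 cytokine receptor and signalling genes, 5 were counted: Il5ra, Il7r, Il10ra, Socs1 and Il2ra. Il5ra and Il2ra encode receptor chains for IL-5 and IL-2, both present in the culture. Il5ra had 2 regions. The region 5.44 kb upstream had IRF4 values of 52.8 and 29.1 on day 1 and 26.4 in day 3 replicate 1, and an intronic region with 2 AP-1 sites had 37.1 and 47.7 on day 1 and no day 3 call. The Il2ra promoter, 0.171 kb upstream of its start, was called in all 3 day 1 libraries (21.3, 50.9 and 64.9) and 0 day 3 libraries. PU.1 was weak there, at 25.7 and 21.7 in the day 3 libraries and not called on day 1. Il7r (0.116 kb past the start) and Il10ra (0.901 kb past it) were bound at promoters, and Socs1, a feedback inhibitor of cytokine signalling, 14.4 kb past its start. These 3 were each called in day 3 replicate 3.

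Of 16 homing and positioning receptors, 4 were counted, among them Cnr2, S1pr1 and Itgal. S1pr1, the receptor that guides exit from lymphoid organs, had an EICE region 12.9 kb past its start (33.9 and 40.1 in day 1 replicates 2 and 3, 0 day 3 libraries). Cnr2, a cannabinoid receptor of B cells, had an intronic region called in day 3 replicate 1 too. Among 12 AP-1 and BATF factors, Junb and Batf3 were counted, though neither with a limit of 5 kb. The Junb region lay 7.35 kb upstream of Junb, but its nearest start was that of Hook2. It had 29.8 and 22.1 in day 1 replicates 2 and 3, the second near the lower end of its list, and was called in 0 day 3 libraries. The Batf3 region, 16.7 kb past the start, had 23.7, 114.9 and 72.9 on day 1 and 29.7 in day 3 replicate 1.

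Of 20 B lineage transcription factors, 3 were counted: Ebf1, Bach2 and Pax5, which maintain B cell identity or hold back plasma cell differentiation. An intron of Ebf1 (chr11:44449766-44450258) had IRF4 values of 65.3 and 97.4 in day 1 replicates 2 and 3, no day 3 call, and weak PU.1 of 19.1 and 21.4 on day 1. A Pax5 intron had 30.4 and 36.3 on day 1 and no day 3 call. The Bach2 region lay past the gene, near Gja10, with 65.0 and 69.4 on day 1 and 44.1 in day 3 replicate 1. None of these 3 regions held an EICE or an AP-1 site. Germinal centre genes counted 3 of 20 (Bach2 again, Mef2b and Ung).

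Of 20 plasma cell genes, 3 were counted: Atf6, Zbtb20 and Tnfrsf13b, and each of their 4 regions was called in 1 day 3 library. Atf6, a sensor of the unfolded protein response, had 2 of them. Zbtb20, a factor of plasma cell survival, had an intronic region with 28.6, 94.8 and 55.3 on day 1, 49.2 in day 3 replicate 1, and PU.1 in all 4 libraries. Interferon-stimulated genes counted 3 of 23, among them Irf7 and Irf9. The Irf7 promoter region had 34.3 and 39.7 in day 1 replicates 2 and 3 and 37.8 in day 3 replicate 3. NF-kB, activation and survival genes counted 1 of 20, Pim1.

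Among markers of other cells, 3 of 20 myeloid genes were counted (Fcgr3, Csf1r and Fcgr1) and 0 of 20 T and NK cell genes. Fcgr1, an Fc receptor, had a region with 2 EICE 6.66 kb upstream, with 26.2 and 27.7 in day 1 replicates 2 and 3 and PU.1 of 152.1 and 234.9 on day 1. The 3 myeloid regions were called in 0 day 3 libraries and all lay outside the genes. Whether other cells in the cultures contributed to them was not tested.

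**Figure D5:**
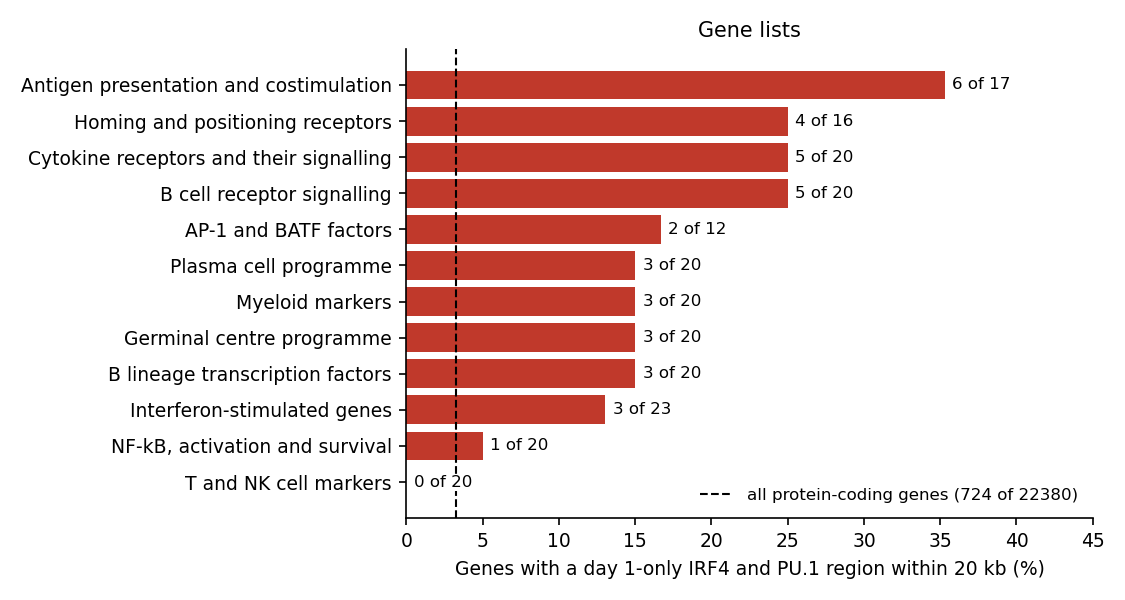
Share of the genes of each list (horizontal axis, %) with a day 1-only IRF4 and PU.1 region in the gene or within 20 kb, with counts beside the bars. The dashed line is the share over all protein-coding genes, 3.24%. Counts run from 6 of 17 antigen presentation genes to 0 of 20 T and NK cell genes.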

How the data were processed

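Peak lists of 6 IRF4 and 4 PU.1 ChIP-seq libraries and 4 group lists were used; the input library was not analysed here. Per the labels and the series' text, mm9 was the reference of the authors' mapping and QuEST their tool for enrichment. No aligner, version or threshold is named in them. The deposited value is a fold enrichment, a linear ratio to input, used to describe and rank regions within a list. The lowest values of lists are also set side by side, and 1 alternative ended the day 3 list at the lowest day 1 value, although each library has its own scale. The lists hold no read counts, so depth is unknown. Every group-list row matched a library row with a partner up to 200 bp away in another library, and this rule rebuilt all 4 lists. Replicate numbers follow the sample descriptions, and the titles of the IRF4 day 3 and PU.1 libraries carry other numbers: IRF4 day 3 replicates 1, 2 and 3 are titled 2, 3 and "4,5". Nothing in the labels ties replicates to separate mice or cultures, and p-values do not cover that spread.

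Both strands of 200 bp windows centred on each position were scanned for motifs in the NCBIM37 (mm9) sequence, indexed with samtools 1.23.1. AICE were GAAA directly before an AP-1 site, or its reverse complement 4 bases before one. Deposited positions were read as counting from 1, which no source states. Starts and genes were from GENCODE M1, with 22380 protein-coding genes; 215 list genes matched by symbol and 2 through a synonym. Shares were compared with Fisher's exact test (scipy 1.17.1) and Benjamini-Hochberg adjustment at 0.05, tested on simulated data. Named regions were the 8 strongest called in all IRF4 day 1, no IRF4 day 3 and all PU.1 libraries, the 5 strongest rows from each source library, the 5 highest-ranked promoter regions, up to 4 genes per list, genes with the most regions, and genes in counts of 6 or fewer, of which some are not reported here. The members and lists were chosen with earlier results of these data known.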

Additional observations from a re-analysis of the deposited data

How the results depend on the processing

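The higher EICE share and lower AP-1 share than in day 1-only regions without PU.1 passed under all alternatives run, from 17.5 to 33.4 and from -31.3 to -20.9 points. Every alternative kept the split by PU.1 peaks, which largely set the direction of the EICE difference. With the stronger 50% of day 1 rows, 241 regions were left, 53.5% of them called on day 3, the ISRE difference from day 1-only regions without PU.1 was 1.70 points and the promoter difference from regions of both days 3.63. With the day 3 list ended at the lowest day 1 enrichment, 56.8% were called on day 3 and the EICE difference from day 3-only regions was -6.55. Absence from every day 3 library left 333 regions, with promoter differences of 3.17 (both days) and 0.819 (day 3-only). The latter was 1.28 with PU.1 in both lists and 0.235 with a limit of 0.5 kb, where the former was 2.56, and 1.52 at 5 kb. A window of 100 bp gave an AP-1 difference from regions of both days of -0.341. Rows of replicate 2 alone, which are the regions without a call in IRF4 day 1 replicate 1, were chosen after seeing the data. They gave -6.78 (EICE) and 2.73 (promoter) against regions of both days.

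Lists rebuilt without each of the 10 libraries in turn gave 96 to 987 regions, 47.9% to 72.9% called on day 3. Differences from regions of both days ran from -15.1 to -7.26 (EICE), -1.18 to 5.53 (AP-1), -3.15 to 0.640 (ISRE) and 2.18 to 6.10 points (promoter). From day 3-only regions they ran from -10.7 to 3.00, 6.19 to 12.8, -9.17 to -4.47 and -3.23 to 1.01. From day 1-only regions without PU.1 they ran from 21.0 to 33.4, -31.3 to -21.8, -2.41 to 5.16 and -0.177 to 7.11. Where a call was lost without IRF4 day 1 replicate 2 or 3, fewer than 100 regions were left. The promoter difference from regions without PU.1 passed only without PU.1 day 3 replicate 2 (4.21 points, Fisher's exact test, adjusted p = 0.0124). With 50 kb or 5 kb around genes the share of all genes was 5.60% or 1.95%, and antigen presentation genes counted 8 or 3 of 17. No paired analysis was possible because the tests count regions of called lists and no value per pair of libraries enters them. Depth is unknown, so the weakest peaks that could be called in each library are not known.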

Other observations

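Some genes had several of the regions. Of the 724 genes counted, 680 had 1 region in the gene or within 20 kb, 40 had 2 and 4 had 3, and these 4 (Lpp, Med12l, Ppfibp2 and Slc1a2) are long, at 132.1 to 599.2 kb. The 3 regions counted for Med12l lay in its introns, where the receptor genes P2ry14, P2ry13 and Gpr171 have the nearest starts. All 3 had PU.1 in 4 libraries, and the one near P2ry14 held an EICE. The 3 regions of Slc1a2, a glutamate transporter, were called in 0 IRF4 day 3 libraries, and 2 of them held an AP-1 site. Lpp had 1 EICE region, called in all 3 IRF4 day 1 libraries at 25.2, 58.9 and 56.0 and in 1 day 3 library.

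Regions called in a day 3 library differed little in AP-1 sites from those called in none (21.3% of 319 and 21.3% of 333), while the EICE was present in 31.0% and 21.9%. This comparison was chosen after the values were seen and was not tested.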
